A study of Mus musculus with 6 samples.

Results

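The SOCS feedback genes and interferon receptor genes measured here are 9 genes, chosen by symbol from the 54532 genes of a FPKM table (fragments counted on a gene, scaled to the gene's length and the library's depth). They are the suppressors of cytokine signalling Socs1, Socs2, Socs3 and Cish, both chains of the type I interferon receptor (Ifnar1, Ifnar2), both chains of the type II interferon receptor (Ifngr1, Ifngr2), and Il10rb, a shared chain of related receptors. RNA was sequenced from 6 cultures of mouse vascular smooth muscle cells (VSMCs), which the study isolated from the abdominal aorta of wild-type mice. All cultures received adenovirus: 3 carried a control plasmid (Ad-Con) and 3 a plasmid for overexpression of PDK4 (Ad-PDK4), the mitochondrial kinase that inhibits pyruvate dehydrogenase. The study's text states that the cells of both groups were also given angiotensin II, which the sample labels do not mention. The study calls the 3 samples of a group biological replicates, but the labels do not say which cultures or animals they came from, so p-values measure the spread between these samples.

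The label was first checked against the targeted gene. Pdk4 stood at 10.0 ± 0.469 FPKM in Ad-Con and 7.48 ± 0.162 FPKM in the samples labelled Ad-PDK4 (SD, n = 3 each), a log2 fold change of -0.42. The mouse gene Pdk4, whose product was meant to be overexpressed, thus had the lower level in those samples. The labels do not give the sequence of the insert, so its reads may not all count on this gene. Groups are called by their labels throughout. Depth was 17588942 to 21861872 reads on genes per library, and the 9 genes held 38 to 2018 reads each in a library. One read in 1 kb of gene was worth 0.0453 to 0.0571 FPKM. Among 8 smooth muscle markers fixed for the cell type check, Acta2 was at 78.0 FPKM in Ad-Con and 36.2 FPKM in Ad-PDK4-labelled samples, while Myh11 had at most 10 reads in any library. Only Acta2, Smtn and Lmod1 of the 8 passed the expression filter, and of these Acta2 was called lower and the others were not called: Smtn was at 8.32 and 8.44 FPKM and Lmod1 at 0.720 and 0.570 FPKM. Tagln (0.341 and 0.292 FPKM), Cnn1 (0.466 and 0.247 FPKM) and Des (0.186 and 0.0468 FPKM), other markers of contractile muscle, were near 0 in both groups of these cells named VSMCs, and Mylk was at 0.756 and 0.123 FPKM. In bulk samples, fewer cells of a type and less RNA per cell cannot be told apart.

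Interferons and many cytokines bind paired receptor chains that carry Janus kinases (JAKs). The kinases phosphorylate STAT transcription factors, which enter the nucleus and switch on target genes. Among those targets are SOCS genes, whose proteins bind the receptors or kinases, block the signal and deliver their partners to a ubiquitin ligase, closing a negative feedback loop. IFNAR1 and IFNAR2 bind type I interferons (IFN-α and IFN-β), IFNGR1 and IFNGR2 bind IFN-γ, and IL10RB pairs with other chains to bind IL10, IL22 and the interferon lambdas.

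Promoter sequence is shown for the genes in which letters read by STAT dimers or interferon regulatory factors were found close to the start site. RefSeq promoters (GRCm38.p6, 250 bases before to 50 bases after a start site) matched 7 of the 9 genes, and Socs2 and Il10rb had no entry. The letters TTCNNNGAA, a STAT dimer motif that reads the same on both strands, occurred in 4 of the 7, against 8.30% of all 32851 promoters. The core of an interferon-stimulated response element, GAAA and GAAA again after any 2 bases, was searched on both strands and occurred in 1 of the 7, Socs1, against 3.44% of all promoters. Each sequence below runs 5′ to 3′ on the gene's strand, with the matched letters in capitals.
Socs1, chr16:10785537-10785786 (minus strand): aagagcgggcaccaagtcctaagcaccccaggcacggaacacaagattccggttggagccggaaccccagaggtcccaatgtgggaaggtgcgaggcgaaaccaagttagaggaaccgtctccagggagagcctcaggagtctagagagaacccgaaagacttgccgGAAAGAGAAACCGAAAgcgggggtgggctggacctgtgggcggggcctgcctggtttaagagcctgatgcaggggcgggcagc
Socs3, chr11:117969367-117969616 (minus strand): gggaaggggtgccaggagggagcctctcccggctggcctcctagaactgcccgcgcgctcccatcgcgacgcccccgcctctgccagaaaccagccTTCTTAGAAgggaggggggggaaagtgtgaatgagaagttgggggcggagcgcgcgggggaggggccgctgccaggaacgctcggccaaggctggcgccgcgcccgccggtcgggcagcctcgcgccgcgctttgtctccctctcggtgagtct
Cish, chr9:107296654-107296683 (plus strand): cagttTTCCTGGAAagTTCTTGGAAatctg
Ifnar2, chr16:91372533-91372782 (plus strand): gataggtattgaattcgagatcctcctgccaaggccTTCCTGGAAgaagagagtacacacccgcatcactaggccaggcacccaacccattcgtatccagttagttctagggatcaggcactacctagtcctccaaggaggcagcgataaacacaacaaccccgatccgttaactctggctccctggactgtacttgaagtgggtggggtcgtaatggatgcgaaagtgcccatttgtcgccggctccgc
Ifnar1, chr16:91484965-91485218 (plus strand): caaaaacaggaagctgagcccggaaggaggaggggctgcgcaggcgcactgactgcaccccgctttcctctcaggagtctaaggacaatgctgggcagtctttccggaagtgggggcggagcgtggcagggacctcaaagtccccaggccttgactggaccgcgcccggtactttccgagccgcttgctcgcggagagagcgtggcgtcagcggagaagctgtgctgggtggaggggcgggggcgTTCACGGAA

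The Socs1 promoter held an overlapping pair of core matches, GAAAGAGAAA from 83 bases and GAAACCGAAA from 77 bases before the start site. The Socs3 match TTCTTAGAA began 154 bases before the start and the Ifnar2 match TTCCTGGAA 214 bases before it. The Ifnar1 match TTCACGGAA began 5 bases before the start and ran across it. Cish held a pair of matches after the start, TTCCTGGAA at base 1 and TTCTTGGAA at base 12. Neither motif was found in the Ifngr1 and Ifngr2 windows. RefSeq start sites can lie away from the ends of the gene models in the table, and a match of letters describes the window and does not show that a factor bound it.

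Of the 9 genes, 7 were higher in the Ad-PDK4-labelled samples, none was lower, and 2 (Ifnar1 and Ifngr2) did not pass the test. The test was limma on log2(FPKM + 0.1) over 13423 genes with a mean of at least 0.5 FPKM, a filter that all 9 passed, with Benjamini-Hochberg adjusted p under 0.05. Across all tested genes 42.7% were called, 21.8% higher and 20.8% lower. The same 7 genes had every Ad-PDK4-labelled value above every Ad-Con value, which held for 27.8% of all tested genes; 26.5% had every value below, 54.3% without overlap in all. Socs1 and Ifnar2 passed a 2-fold change as well, which 3.95% of all tested genes did in the higher direction and 2.68% in the lower. Socs2, at 0.92 on the log2 scale of the test, had a ratio of mean FPKM of 2.04. Socs1 lay under the 2-fold limit without Ad-Con replicate 3 (0.93) or Ad-PDK4 replicate 2 (0.90), and with a pseudocount of 1 (0.60). The median log2 fold change was 0.75 over the 9 genes and -0.003 over all tested genes.

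**Figure D1:**
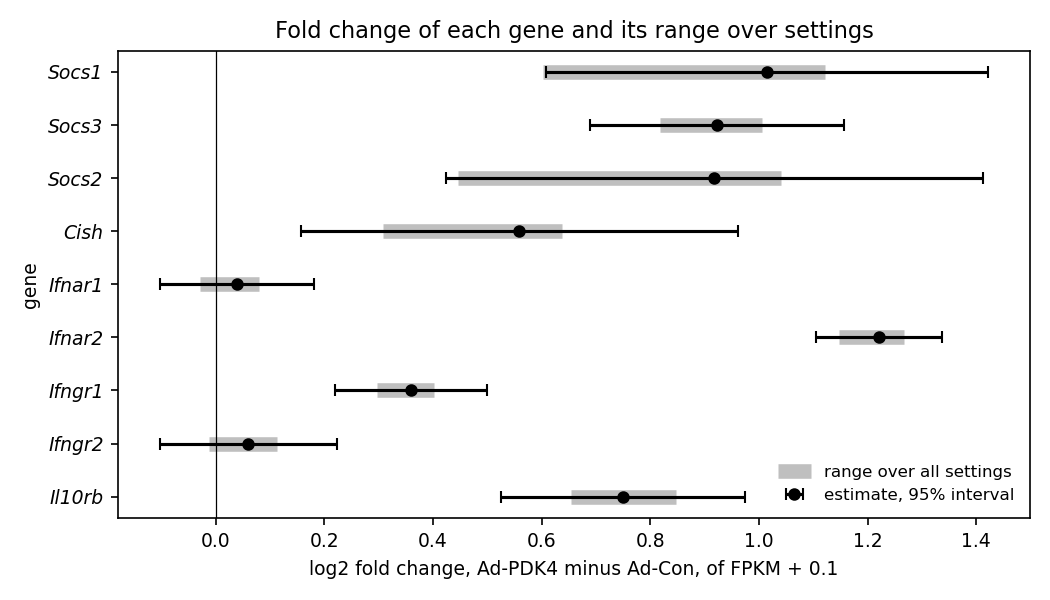
Points give the log2 fold change of FPKM + 0.1 for each of the 9 genes, Ad-PDK4-labelled minus Ad-Con (n = 3 each), with 95% intervals from limma, and grey bars give the range over 15 alternative settings. Ifnar2 at 1.22 has a narrow interval, the low genes Socs1, Socs2 and Cish have wide ones, and the intervals of Ifnar1 and Ifngr2 include 0.

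All 4 SOCS feedback genes were higher in the Ad-PDK4-labelled samples. SOCS1, which inhibits JAK kinases directly and restrains both interferon pathways, had Socs1 levels of 0.811, 0.960 and 0.721 FPKM in Ad-Con (48, 49 and 38 reads). In the Ad-PDK4-labelled samples they were 1.51, 2.08 and 1.76 FPKM (80, 106 and 113 reads). The groups did not overlap, although every library held a low number of reads. Socs1 rose by a log2 fold change of 1.02 (SE 0.18, 95% interval 0.61 to 1.42, adjusted p = 0.0026). The value is on the log2(FPKM + 0.1) scale, which understates the change of low genes; the ratio of mean FPKM was 2.15. With a pseudocount of 1 the log2 fold changes of the low genes Socs1, Socs2 and Cish were 0.60, 0.45 and 0.31.

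SOCS3 binds the gp130 receptor chain and is the main brake on STAT3. Socs3 was measured at 8.16, 8.27 and 7.35 FPKM in Ad-Con and at 13.4, 17.5 and 14.7 FPKM in the Ad-PDK4-labelled samples. It was the best measured of the 4 genes, with 385 to 936 reads per library, and the Ad-PDK4-labelled values all lay above the Ad-Con values. Socs3 rose by 0.92 on the log2 scale (SE 0.10, 95% interval 0.69 to 1.16, adjusted p = 0.00026).

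SOCS2 restrains growth hormone signalling. Socs2 stood at 0.562, 0.418 and 0.613 FPKM in Ad-Con and 1.05, 1.04 and 1.16 FPKM in the Ad-PDK4-labelled samples. The 3 Ad-PDK4-labelled values were close to each other and apart from the Ad-Con values. The log2 fold change was 0.92 (SE 0.21, 95% interval 0.42 to 1.41, adjusted p = 0.0102). Of the 50-base stretches of the longest Socs2 transcript, 7.23% also occur in other genes, among them Gm8000 and Gm9847, so some of its reads are uncertain.

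CISH, induced by STAT5, restrains STAT5 signalling. Cish stood at 0.712, 0.834 and 0.876 FPKM in Ad-Con and 1.10, 1.40 and 1.21 FPKM in the Ad-PDK4-labelled samples, again without overlap. Its log2 fold change was 0.56 (SE 0.17, 95% interval 0.16 to 0.96, adjusted p = 0.033). This call was lost whichever library was left out: without Ad-Con 1, 2 or 3 the log2 fold change was 0.48, 0.58 or 0.61 (adjusted p = 0.096, 0.059 and 0.052), and without Ad-PDK4 1, 2 or 3 it was 0.63, 0.48 or 0.57 (adjusted p = 0.053, 0.102 and 0.074). A share of 11.5% of the Cish exon bases overlaps the antisense gene models Gm17040 and Gm17041, which held at most 4 reads in any library, and 13.2% of the 50-base stretches of its longest transcript also occur in other genes, so some of its reads are uncertain. The strand setting of the counting is not given in the sources used here.

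**Figure D2:**
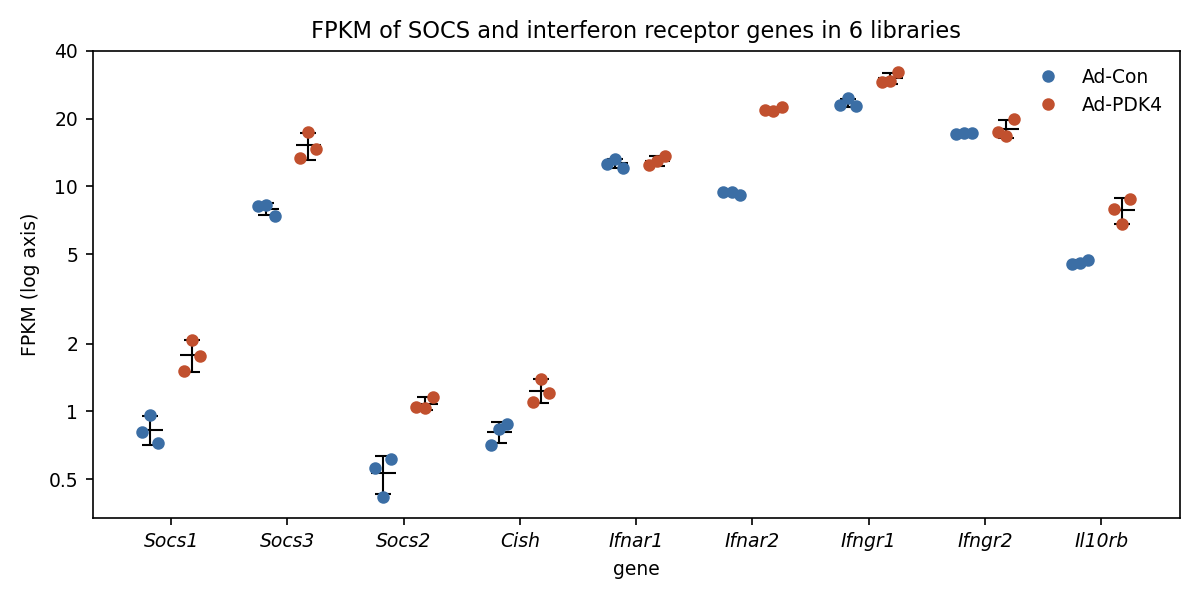
FPKM of each of the 9 genes in every library on a log axis, with points for the 3 Ad-Con and 3 Ad-PDK4-labelled libraries and bars for the group mean and SD. The groups separate for all genes shown except Ifnar1 and Ifngr2, and Ifnar2 moves from 9.33 to 21.9 FPKM while Ifnar1 is at 12.6 and 13.0 FPKM.

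The chains of the type I interferon receptor differed. IFNAR2 is the chain that binds the ligand with high affinity and holds the kinase JAK1. Ifnar2 was at 9.42, 9.46 and 9.11 FPKM in Ad-Con and at 21.7, 21.5 and 22.4 FPKM in the Ad-PDK4-labelled samples. Values within a group lay close together and the groups were far apart. Ifnar2 rose by 1.22 on the log2 scale (SE 0.05, 95% interval 1.10 to 1.34, adjusted p = 1.5e-06), a ratio of mean FPKM of 2.35. Of all tested genes it ranked 476 by log2 fold change from the top, against 606 for Socs1.

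IFNAR1, the second chain, binds with low affinity and holds the kinase TYK2. Ifnar1 was at 12.6, 13.2 and 12.1 FPKM in Ad-Con and at 12.4, 12.9 and 13.6 FPKM in the Ad-PDK4-labelled samples, so the groups overlapped. The log2 fold change was 0.04 (SE 0.06, adjusted p = 0.64), and its 95% interval ran from -0.10 to 0.18. With quantile normalization the value was -0.029.

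The type II receptor showed a smaller difference. IFNGR1 is the ligand-binding chain for IFN-γ. Ifngr1 was at 23.0, 24.7 and 22.8 FPKM in Ad-Con and at 29.1, 29.3 and 32.1 FPKM in the Ad-PDK4-labelled samples, without overlap. It rose by 0.36 on the log2 scale (SE 0.06, 95% interval 0.22 to 0.50, adjusted p = 0.0022), a ratio of mean FPKM of 1.28. IFNGR2 is the signalling chain that brings JAK2. Ifngr2 was at 17.1, 17.3 and 17.2 FPKM in Ad-Con and at 17.5, 16.7 and 19.8 FPKM in the Ad-PDK4-labelled samples, and the groups overlapped. Its log2 fold change was 0.06 (SE 0.07, 95% interval -0.10 to 0.22, adjusted p = 0.53), and it was -0.012 without Ad-PDK4 replicate 3.

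Il10rb encodes the shared chain of the IL10, IL22 and interferon lambda receptors. It was at 4.50, 4.55 and 4.72 FPKM in Ad-Con and at 7.91, 6.80 and 8.79 FPKM in the Ad-PDK4-labelled samples. The groups did not overlap, and the spread was wider in the higher group. Il10rb rose by 0.75 on the log2 scale (SE 0.10, 95% interval 0.53 to 0.97, adjusted p = 0.0006). Of its exon bases 14.9% are shared with the same-strand readthrough model Gm21970, which also covers 9.46% of the Ifnar2 exon bases and was listed at 0 reads in every library. Stretches of 50 bases found in other genes made up 19.5% of the longest Il10rb transcript and 8.87% of the longest Ifnar2 transcript, so part of the reads of both genes is uncertain.

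Because a receptor needs both chains, the ratio of their FPKM levels was taken within each library. Ifnar1 over Ifnar2 was 1.34, 1.39 and 1.33 in Ad-Con and 0.570, 0.602 and 0.609 in the Ad-PDK4-labelled samples. The order of the chains by FPKM was thus turned around, with Ifnar1 the higher in all Ad-Con libraries and Ifnar2 the higher in all others. That order depends on the gene lengths, 5940 bases for Ifnar1 and 3329 for Ifnar2. By reads, Ifnar1 stayed the higher in the Ad-PDK4-labelled libraries (1339, 1345 and 1790 against 1317, 1253 and 1647). As log2 ratios of FPKM + 0.1, the scale of every test of a ratio, the values went from 0.43 ± 0.0365 to -0.75 ± 0.0507 (SD, n = 3 each), a difference of -1.18 with p = 0.1 in an exact two-sided permutation test (adjusted p = 0.167 over 5 ratios). With 3 libraries against 3, 0.1 is the smallest p this test allows.

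Ifngr1 over Ifngr2 was 1.34, 1.43 and 1.32 in Ad-Con and 1.67, 1.76 and 1.62 in the Ad-PDK4-labelled samples, a log2 difference of 0.30 (exact permutation p = 0.1, adjusted p = 0.167). Il10rb over Ifnar2 was 0.478, 0.481 and 0.518 against 0.364, 0.316 and 0.392, a log2 difference of -0.47 (exact permutation p = 0.1, adjusted p = 0.167). Neither pair of groups overlapped. Socs3 over Socs1 was 10.1, 8.62 and 10.2 against 8.88, 8.39 and 8.33, so these groups overlapped (log2 difference -0.09, exact permutation p = 0.4, adjusted p = 0.4). Socs2 over Cish also overlapped, at 0.789, 0.502 and 0.700 against 0.950, 0.742 and 0.959 (log2 difference 0.36, exact permutation p = 0.2, adjusted p = 0.25).

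**Figure D3:**
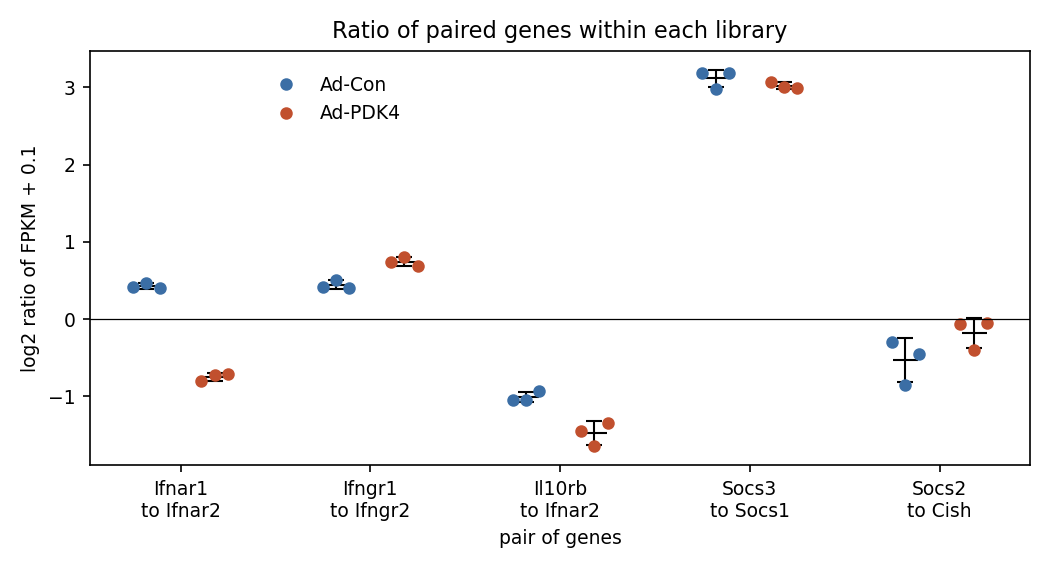
The log2 ratio of FPKM + 0.1 between paired genes in each of the 6 libraries, with points for the 3 libraries of each label and bars for mean and SD. Ifnar1 over Ifnar2 crosses 0 between the groups, from 0.43 to -0.75, while the points of Socs3 over Socs1 and of Socs2 over Cish overlap.

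The genes Ifnar2, Il10rb, Ifnar1 and Ifngr2 lie side by side in this order on the plus strand of mouse chromosome 16, over 193 kb (16:91372783 to 91565623 in the table's coordinates, which match GRCm38). Ifnar2 ends 574 bases before Il10rb begins, and gaps of 59.4 kb and 39.6 kb follow. The first 2 genes of the row were called higher and the last 2 were not. Within 200 kb of the row, 7 other coding genes were tested, of which 2 were higher, none was lower and 5 did not pass. Son, a splicing cofactor, rose by 0.34 (adjusted p = 0.0011), and Gart, an enzyme of purine synthesis, by 0.29 (adjusted p = 0.0174), a call that was lost without Ad-Con replicate 3 (0.25, adjusted p = 0.063). The nearest tested gene past Ifngr2, Tmem50b, had a log2 fold change of -0.05. The others that did not pass were Dnajc28 at -0.32, Donson at 0.63 (adjusted p = 0.072), Cryzl1 at 0.04 and Itsn1 at 0.23 (adjusted p = 0.0635). Donson and Itsn1 passed with limma-voom on recovered reads (adjusted p = 0.0285 and 0.0076), and Dnajc28 without Ad-Con replicate 3 (-0.48, adjusted p = 0.031). Itsn1 also passed with TPM scaling (0.28, adjusted p = 0.0328).

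**Figure D4:**
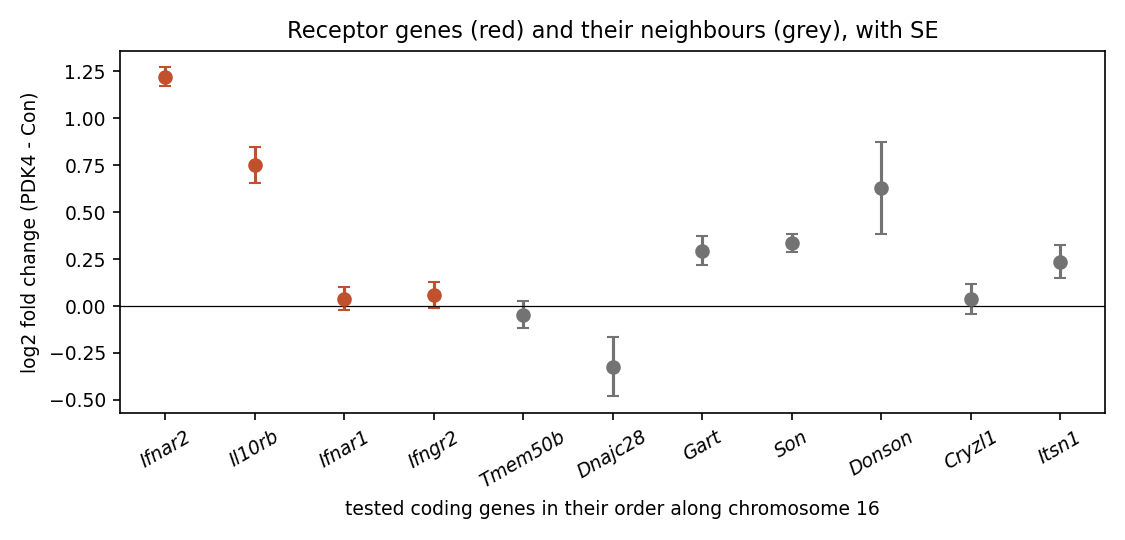
The log2 fold change with its SE (limma, n = 3 against 3) for the 11 tested coding genes of the chromosome 16 region, in their order along the chromosome, with the 4 receptor genes in red. Ifnar2 (1.22) and Il10rb (0.75) stand at the left, followed by Ifnar1 (0.04) and Ifngr2 (0.06).

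By level in Ad-Con, the order was Ifngr1, Ifngr2, Ifnar1, Ifnar2, Socs3, Il10rb, Socs1, Cish and Socs2, from 23.5 ± 1.03 FPKM down to 0.531 ± 0.101 FPKM (SD, n = 3). Socs1 and Cish were the only neighbours in that order whose values overlapped. In the Ad-PDK4-labelled samples the order was Ifngr1, Ifnar2, Ifngr2, Socs3, Ifnar1, Il10rb, Socs1, Cish and Socs2, from 30.2 ± 1.67 FPKM down to 1.08 ± 0.0699 FPKM. There the values of Ifngr2 and Socs3, of Socs3 and Ifnar1, and of Cish and Socs2 overlapped. Ifnar2 thus moved from the fourth to the second place. Order between genes depends on the gene length that FPKM is scaled to. That length was 9531 bases for Socs2, 6419 for Cish and 2908 for Socs1, against longest transcripts of 4242, 4697 and 2908 bases. In Ad-Con, Socs2 held 109, 70 and 106 reads and Socs1 48, 49 and 38, although Socs2 was the lower by FPKM.

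The other 4 SOCS genes did not share one direction: 1 was higher, 1 lower and 2 did not pass, with a median log2 fold change of 0.06. Socs5 rose from 32.5 to 38.3 FPKM (log2 fold change 0.24, adjusted p = 0.0074) and Socs6 fell (log2 fold change -0.30, adjusted p = 0.0114). Socs4 was at 0.07 and Socs7 at 0.06 on the log2 scale. Of 6 parts of the CUL5 ubiquitin ligase that SOCS proteins join, 1 was higher, 1 lower and 4 did not pass, with a median of -0.03. Ube2f, its NEDD8-conjugating enzyme, rose by 0.51 (adjusted p = 0.0033), and the RING subunit Rnf7 had a log2 fold change of -0.15 (adjusted p = 0.033). Arih2 was at 0.13 and Elob at -0.06, and neither passed. The Rnf7 call was lost without any one of 5 libraries, all except Ad-PDK4 replicate 2 (adjusted p 0.056 to 0.123), and also with TPM scaling or limma-voom. It was lost as well without the trend and robust options of limma and with no filter beyond a mean above 0 FPKM.

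The kinases and transcription factors below the receptors were mostly higher: of 9 tested, 6 were higher, none was lower and 3 did not pass, with a median log2 fold change of 0.40. Stat2, which joins IRF9 in the type I interferon response, rose by 2.62. Jak2 rose by 0.77, Jak3 by 0.52, Stat3 by 0.45, Stat5b by 0.40 and Stat6 by 0.33. Jak1, the kinase of Ifnar2 (0.10, adjusted p = 0.129), Tyk2, the kinase of Ifnar1 (0.20, adjusted p = 0.122), and Stat5a (0.14, adjusted p = 0.228) did not pass, although Jak1 did with TPM scaling (0.14, adjusted p = 0.0465). Stat4 had no reads.

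Of 11 other tested inhibitors of the pathway, 5 were higher, 2 lower and 4 did not pass, with a median of 0.12. USP18, which binds IFNAR2 and blocks its kinase, had Usp18 means of 15.7 FPKM in Ad-Con and 87.6 FPKM in the Ad-PDK4-labelled samples, 2.47 apart on the log2 scale. The phosphatase gene Ptpn2 rose by 0.75. Pias3 and Pias2, genes for protein inhibitors of activated STATs, fell by 0.33 and 0.24 on the log2 scale. The call of Ptpn1 (0.25, adjusted p = 0.031) was lost without Ad-Con replicate 1 or 3 or without Ad-PDK4 replicate 1 or 2 (0.20 to 0.26, adjusted p 0.076 to 0.101). It was also lost with quantile normalization (0.18, adjusted p = 0.089) and without the trend and robust options of limma (adjusted p = 0.058). With no filter beyond a mean above 0 FPKM it was lost too (adjusted p = 0.067).

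All 20 interferon-stimulated genes of a fixed list were higher, with a median log2 fold change of 3.36, under each setting in which they were tested. The largest values were those of Cxcl10, a chemokine (7.77), and Iigp1, an immunity-related GTPase (5.92), and the smallest those of Irf1 (1.35) and Tap1 (1.38). In Ad-Con, Cxcl10 had 4, 7 and 6 reads (mean 0.137 FPKM). This is near the 0.1 FPKM added, so the size of 7.77 depends on that addition. Cxcl10 and Mx1 (mean 0.135 FPKM in Ad-Con) passed the expression filter through their Ad-PDK4-labelled means, 51.7 and 2.08 FPKM. The list was known from earlier results of these data, so its direction is not independent evidence. The sizes in the list are no independent yardstick either. The value of Ifnar2, 1.22, lay below the lowest of the list, and ranked 476 from the top among all 13423 tested genes. Of 24 listed ligands, 23 were found in the table, none reached the expression filter and 19 had no reads in any library. Ifnb1 had 0 reads in all Ad-Con libraries and 7, 5 and 5 reads in the Ad-PDK4-labelled ones. Their mean FPKM was 1.85 times the mean obtained when each Ad-Con library is set to a floor of 3 reads. Counting error in the 7, 5 and 5 reads was not allowed for. With no filter beyond a mean above 0 FPKM, 1 ligand was called higher. Ifng, Il10, Il22, Ifnl2 and Ifnl3 had 0 reads in all 6 libraries, so up to 3 reads per library cannot be told from 0.

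Among other genes of the class II cytokine receptor family, 3 of 7 were tested, of which 1 was lower and 2 did not pass, with a median log2 fold change of -0.38. Il20rb, a chain of the IL20 receptor, had a log2 fold change of -0.69 (adjusted p = 0.025), a call lost without Ad-Con replicate 1 (-0.60, adjusted p = 0.095), Ad-Con replicate 2 (-0.72, adjusted p = 0.054) or Ad-PDK4 replicate 1 (-0.56, adjusted p = 0.075). Ifnlr1, the partner of Il10rb for interferon lambda, was at -0.38 and F3, tissue factor, at -0.10, and neither passed, although Ifnlr1 did without the trend and robust options of limma (adjusted p = 0.0489). Il10ra, the partner of Il10rb for IL10, had no reads, as had Il20ra and Il22ra2. Of 11 tested receptors whose signal SOCS proteins restrain, 6 were higher, none was lower and 5 did not pass, with a median of 0.24. Osmr, the oncostatin M receptor, rose by 1.81, Lifr by 1.15, Il13ra1 by 1.07, Il4ra by 0.95 and the gp130 gene Il6st by 0.80. Epor (-0.78) and Il12rb1 (-0.65) were lower in mean but did not pass, with these exceptions: Il12rb1 passed without Ad-Con replicate 3 (-0.87, adjusted p = 0.027) and with limma-voom on recovered reads (-0.74, adjusted p = 0.024), and Epor without the trend and robust options of limma (adjusted p = 0.0139).

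**Figure D5:**
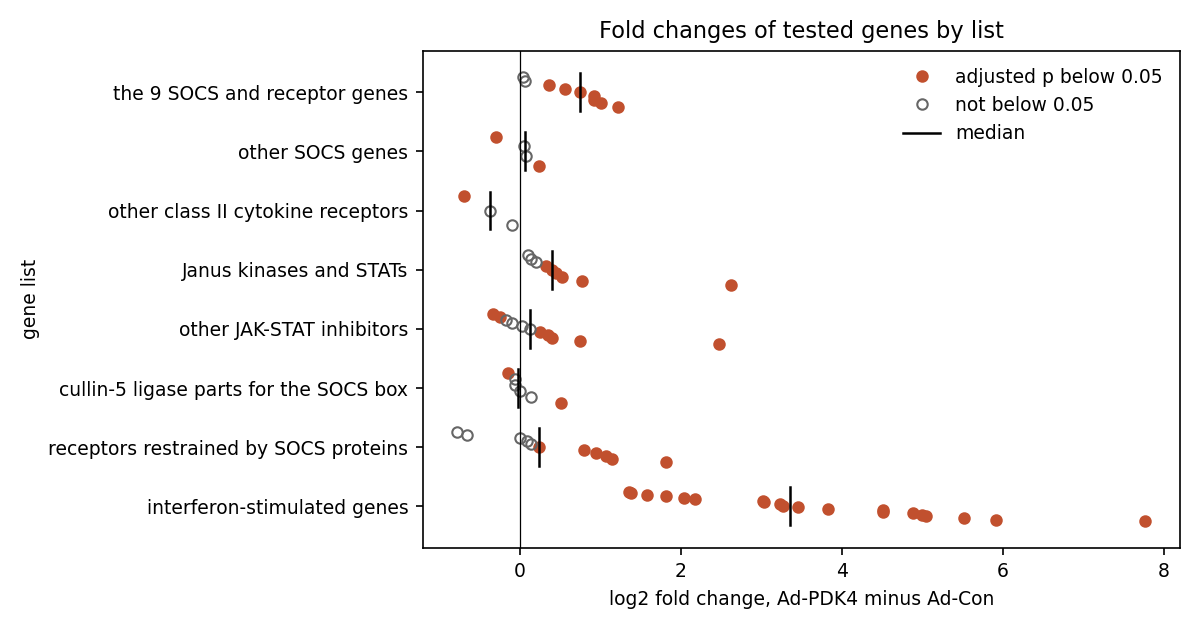
Each point is the log2 fold change of 1 tested gene (Ad-PDK4-labelled minus Ad-Con, FPKM + 0.1), in rows for the 9 SOCS and receptor genes and the fixed lists of pathway genes. Filled points passed the adjusted p of 0.05, open points did not, and bars mark medians. The 20 interferon-stimulated genes all lie to the right of the 9 genes' highest value, 1.22. In other rows Stat2 (2.62), Usp18 (2.47) and Osmr (1.81) do so too, and the medians of those rows are lower than that of the 20 genes.

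The genes whose profile was most like each changed gene were sought among 7731 genes with a mean of at least 5 FPKM, by the root mean square distance of centred log2 values over the 6 libraries. Nearest to Ifnar2 were Sulf1 (0.0345) and Lgals9 (0.0449), to Il10rb Apbb1ip (0.0334) and Nampt (0.0475), and to Ifngr1 Dhx8 (0.0277) and Kat2b (0.0298). For Socs1 they were Socs3 (0.0842) and Epha2 (0.0983), and for Socs3 Pprc1 (0.0449) and Rin1 (0.0590). Socs2 lay nearest to Pnpt1 (0.0657) and Pnp (0.0716), and Cish to Tm4sf1 (0.0582) and Mcat (0.0602). The libraries share depth and group, and the distances are a description.

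Markers of other cell types were read beside these results. Of 12 macrophage and leukocyte markers, 6 (Ptprc, Tyrobp, C1qa, C1qb, C1qc and Itgam) had no reads in any library, and Adgre1 and Laptm5 had at most 1. Their summed level was 27.8 to 30.9 FPKM in Ad-Con and 24.7 to 27.5 FPKM in the Ad-PDK4-labelled samples. Cd68 made up much of it and was lower there (14.2 to 4.24 FPKM), while Cd14 was higher (12.8 to 18.8 FPKM). Of 6 lymphocyte markers 5 had no reads and the other at most 2. Endothelial markers summed to 0.617 to 0.798 FPKM against 0.885 to 1.18 FPKM, with Emcn at 0 reads. The fibroblast list summed to 1247 to 1341 FPKM against 661 to 734 FPKM and the smooth muscle list to 87.8 to 89.4 FPKM against 43.3 to 48.1 FPKM, a sum that Acta2 dominated. The fibroblast list did not move as a whole: of 5 tested genes 3 were lower, 1 was higher and 1 did not pass, with log2 fold changes from -1.28 to 0.83. The part of these lists in the results was not tested.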

How the data were processed

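RNA of 6 mouse VSMC samples was sequenced as paired Illumina reads. The submitters' processing notes name CASAVA 1.8, fastp, HISAT2 2.0.5, featureCounts 1.5.0-p3 and DESeq2 1.20.0, and the genome GRCm39. Of the table's gene IDs, 54409 are in GENCODE mouse release 21 (GRCm38), and 98.3% of them have the same coordinates there, so GRCm38 is used here. The labels and the study's methods name different library kits. The values used are FPKM, which the authors computed from gene counts and deposited for each sample. The table also holds gene annotation. Multiplied by gene length, FPKM gave each library's whole reads within 0.01 reads. Those reads are used for depth, for floors, for 1 alternative fit and beside FPKM where the order of genes depends on gene length.

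Genes with a mean of at least 0.5 FPKM over the 6 libraries (13423) entered limma 3.58.1 (R 4.3.3) after a log2 transform with 0.1 FPKM added (trend and robust options, group as the only term, all 6 samples), with Benjamini-Hochberg adjustment over all tested genes and a threshold of 0.05. The fit was tested on simulated data with the same spread setting for every gene. That checks the code and does not measure error rates in these data. Ratios were compared with exact two-sided permutation tests (scipy 1.17.1). The labels do not say that a replicate number shared by both groups marks a shared animal or day. The 9 genes and all gene lists were chosen with earlier results of these data known, so they are no independent evidence. All 9 genes are named, with from each list the 2 largest rises and 2 largest falls, the JAKs and STATs listed, the coding genes within 200 kb of the chromosome 16 receptors and the 2 nearest profiles of each called gene; other genes were named after their values were seen. One item of the lists is not reported here and is left out of their counts. Alternatives were other pseudocounts (0.01 and 1), other filters, TPM scaling, quantile normalization, no trend and robust options, limma-voom on recovered reads, the replicate number as a block and leaving out each library. No intervals for reads were computed where floors are used.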

Additional observations from a re-analysis of the deposited data

How the results depend on the processing

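Over 15 alternatives the log2 fold changes ranged from 0.60 to 1.12 for Socs1, 0.45 to 1.04 for Socs2, 0.82 to 1.01 for Socs3, 1.15 to 1.27 for Ifnar2, 0.30 to 0.40 for Ifngr1 and 0.65 to 0.85 for Il10rb, and these 6 were called higher wherever they were tested. The low ends for Socs1 and Socs2, and 0.31 for Cish, came with a pseudocount of 1, which compresses low values. With a mean of at least 5 FPKM, 4 of the 9 genes were called, since Socs1, Socs2 and Cish left the test. Leaving out each replicate in turn gave 6 genes called higher (all but Cish) and 0 lower each time. With the replicate number as a block, 6 genes were called (Cish: 0.56, adjusted p = 0.0555), the Il20rb call was lost (adjusted p = 0.0609) and Tyk2 was called (adjusted p = 0.0435); same-numbered samples did not deviate together (correlations -0.046, -0.031 and -0.001), so the numbers were not taken as pairs. Ifnar1 turned to -0.029 (adjusted p = 0.731) with quantile normalization, Ifngr2 to -0.012 (adjusted p = 0.875) without Ad-PDK4 replicate 3 (its range with a replicate left out was -0.012 to 0.11), and Socs3 over Socs1 to 0.25 with a pseudocount of 1. Genes of the pathway lists called lower numbered 5, and 3 to 5 with a replicate left out. All tested genes called higher ranged from 2162 to 3361 and lower from 1881 to 3132; the median of all genes moved to 0.037 with TPM scaling and -0.035 with quantile normalization. With 38 to 113 reads, Socs1 is limited by depth.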

Other observations

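The 8 genes of the SOCS family were also set side by side by their share of the family's summed FPKM. Socs5 held 53.6% ± 0.376 of it in Ad-Con and 51.3% ± 1.33 in the Ad-PDK4-labelled samples (SD, n = 3 each), the largest share in both groups. Socs3 held 13.1% ± 0.861 and 20.3% ± 2.18, and Socs6 12.9% ± 0.176 and 8.50% ± 0.840. Socs1, Socs2 and Cish each held under 3% in both groups. These shares depend on one another and on the length that each gene's FPKM is scaled to, and were not tested.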
